A study of Rattus norvegicus with 48 samples.

Results

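miR-132 and miR-212 are microRNAs made from 1 short stretch of the rat genome, and their levels were examined here in the amygdala and the ventral striatum of rats after prenatal ethanol exposure and social enrichment. The deposited table of small RNA sequencing values was searched for the names of their 4 mature products (miR-132-3p, miR-132-5p, miR-212-3p, miR-212-5p) and their 2 precursors (mir-132, mir-212). All 6 names were found among 1063, each on 1 line of the table and each above 0 in all 48 libraries.

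Both microRNAs are cut from a shared primary transcript whose promoter responds to the transcription factor CREB, so that neuronal activity and the neurotrophin BDNF raise their production. In neurons they are known for promoting dendrite growth and for tuning synaptic plasticity. A precursor hairpin gives 2 arms, the 5p and the 3p product, and the bases near the 5′ end of an arm, its seed, select the messenger RNAs that it represses.

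Each library was made from a pool of 3 Long Evans rats of the same sex, killed on postnatal day 42. The dams had received intraperitoneal ethanol or saline on a single day of gestation, and the weaned offspring then lived either with littermates (non-enriched) or with unfamiliar rats of the same age and sex born to untreated dams (enriched). All animals had gone through a social interaction test and were anaesthetised with ketamine and xylazine before tissue collection, so these conditions are common to every group. Every library carried the neuronal microRNAs miR-124-3p, miR-128-3p, miR-138-5p and miR-9a-5p, as brain tissue should, at a sum of 27585 to 54641 RPM, where RPM is defined below. Crossing 2 regions, 2 sexes, 2 prenatal groups and 2 housings gave 16 cells of 3 libraries, or 6 libraries for each prenatal group and housing in a region. Ethanol or saline was given to the dam, and the labels do not give the litters behind a pool. Pools may therefore share litters, while the tests below take the pools of a region as independent. In a pool of tissue, fewer cells that make a microRNA and less of it per cell cannot be told apart.

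The mature sequences of all 4 products are shown because the shared and the separate seeds divide the group. They were taken from the RefSeq annotation of the rat genome build GRCr8, written 5′ to 3′ with the seed (bases 2 to 8) in capitals.
miR-132-3p: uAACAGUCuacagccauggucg
miR-212-3p: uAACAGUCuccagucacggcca
miR-132-5p: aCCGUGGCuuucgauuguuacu
miR-212-5p: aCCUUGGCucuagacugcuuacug
The 3p arms carried the same seed, AACAGUC, and were identical at 17 of 22 positions counted from the 5′ end. Their differences, with the base of miR-132-3p first, were A10C, C14U, U17C, U20C and G22A, all outside the seed. The seeds of the 5p arms, CCGUGGC and CCUUGGC, differed from each other. Among 693 mature names in the annotation, no other held any of these seeds.

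On the plus strand of chromosome 10 of GRCr8, miR-212-5p lay at chr10:60521771-60521794, miR-212-3p at chr10:60521811-60521832, miR-132-5p at chr10:60522055-60522076 and miR-132-3p at chr10:60522091-60522112. The 4 products thus fell within 342 bases, with 222 bases between the end of miR-212-3p and the start of miR-132-5p.

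Levels are given in RPM, the share of a library's reads scaled so that its mature names sum to 1000000 and its precursor names to another 1000000. miR-132-3p was the most abundant product. Over all 48 libraries it ranged from 988.6 to 3920 RPM, with a median of 2180, and by its mean it ranked 59th among 612 mature names in the amygdala and 49th in ventral striatum libraries. miR-212-5p ranged from 354.4 to 1889 RPM with a median of 1162, and its sister arm miR-212-3p from 474.1 to 1497 RPM with a median of 976. miR-132-5p was the scarce arm of its hairpin, between 90.02 and 298.9 RPM with a median of 192.6. These values rested on 49 to 318 estimated reads for miR-132-5p and on 721 to 3789 for miR-132-3p, so counting error is a larger share of the scarce arm.

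In all 48 libraries miR-132-3p was the highest and miR-132-5p the lowest of the 4 mature products, while miR-212-5p lay above miR-212-3p in 40 libraries and below it in 8. miR-132-3p made up 41.2% to 57.5% of their summed level, miR-212-5p 18.5% to 31.6%, miR-212-3p 15.6% to 28.9% and miR-132-5p 2.65% to 6.13%. The hairpin of miR-132 was therefore read almost wholly as its 3p arm, whereas both arms of miR-212 were read at similar levels. The 3p arms that share a seed amounted together to 0.146% to 0.503% of all mature reads, with a median of 0.311%. The estimated reads of a precursor name were close to the sum of its arms, at a ratio between 1.02 and 1.04 for mir-132 and between 1.03 and 1.07 for mir-212. The precursor values are therefore nearly the same reads counted again, not separate evidence, and mature products are described below.

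**Figure D1:**
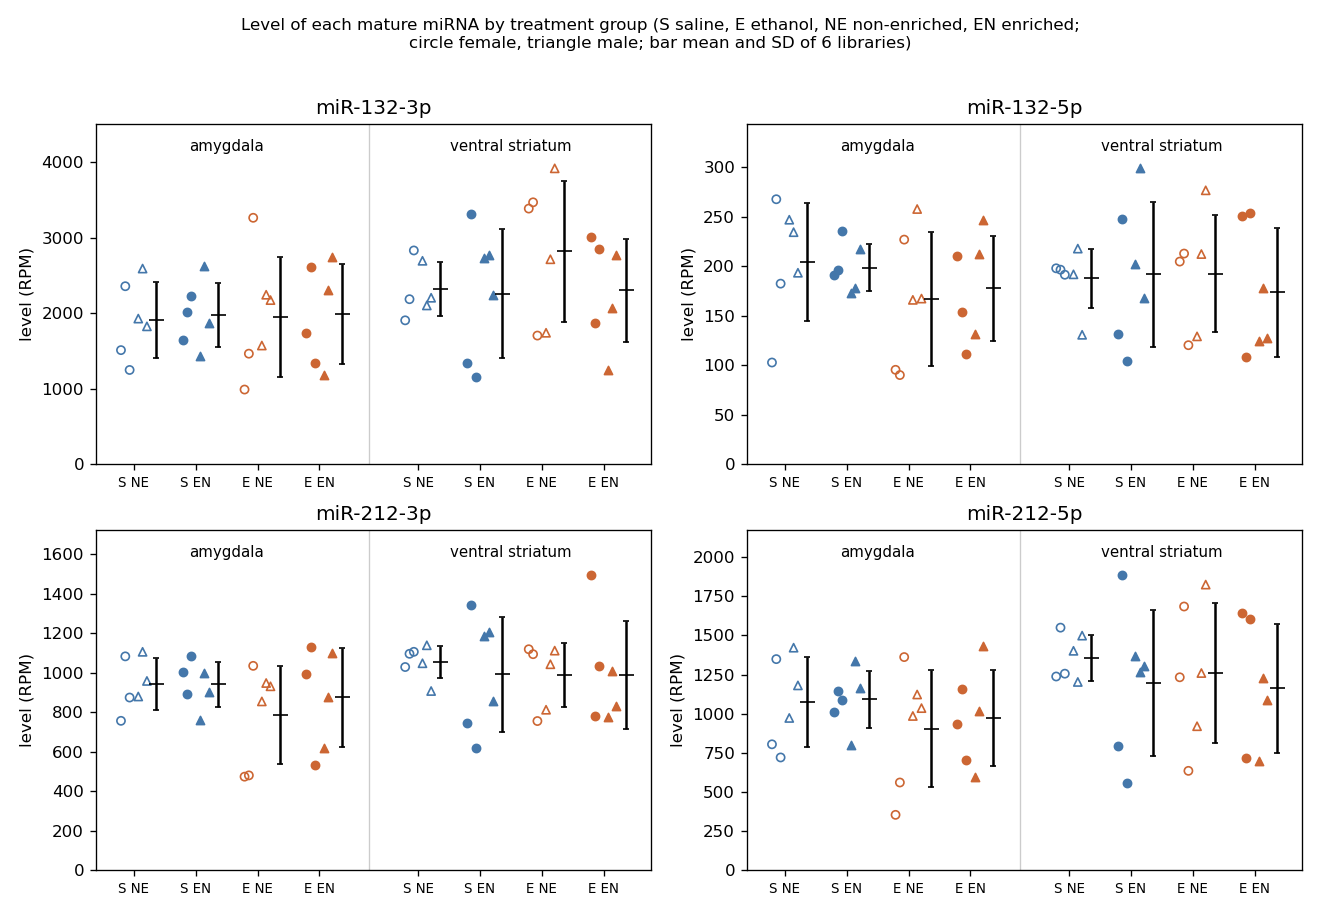
Level of each mature product in RPM (vertical axes, from 0) in the 8 treatment groups of 6 libraries, with open symbols for non-enriched and filled symbols for enriched animals, circles for female and triangles for male pools, and bars for the mean and SD. In every panel the groups overlap, and the libraries of most groups spread over as wide a range as the group means do. The saline non-enriched ventral striatum group was narrower for miR-212-3p (907.5 to 1139 RPM) and miR-212-5p (1203 to 1550 RPM).

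The lowest and the highest library of a group often differed by more than the groups themselves. In the amygdala, miR-132-3p had its lowest, median and highest values at 1248, 1877 and 2592 RPM in saline non-enriched libraries and at 1436, 1940 and 2632 in saline enriched libraries. The corresponding values were 988.6, 1873 and 3265 RPM in ethanol non-enriched and 1179, 2024 and 2741 in ethanol enriched libraries. The 4 medians lay close together, and the ethanol non-enriched group contained both the lowest and the highest amygdala library. In the ventral striatum, miR-132-3p ran from 1906 through a median of 2195 to 2832 RPM in saline non-enriched libraries, and from 1155 through 2485 to 3320 in saline enriched ones. It ran from 1704 through 3051 to 3920 RPM in ethanol non-enriched libraries and from 1253 through 2421 to 3006 in ethanol enriched ones.

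Ordered by their means, the ventral striatum groups came first, led by ethanol non-enriched (2823 ± 935 RPM, SD, n = 6), followed by saline non-enriched (2321 ± 361), ethanol enriched (2303 ± 686) and saline enriched (2259 ± 857). The amygdala groups followed, from ethanol enriched (1985 ± 663) through saline enriched (1972 ± 426) and ethanol non-enriched (1951 ± 796) to saline non-enriched (1911 ± 504). Neighbours in this order differed by less than the larger SD of the pair.

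On a relative scale miR-212-3p had the smallest ratio of highest to lowest library over all 48, at 3.16. In the amygdala it lay between 756.7 and 1106 RPM (median 919.2) in saline non-enriched libraries, between 761.3 and 1086 (median 951.5) in saline enriched, between 474.1 and 1035 (median 893.2) in ethanol non-enriched and between 530.8 and 1130 (median 936) in ethanol enriched libraries. The highest values of the 4 groups were alike, and the lowest values were lower in both ethanol groups. In the ventral striatum the same product lay between 907.5 and 1139 RPM (median 1072) in saline non-enriched, 617 and 1342 (median 1021) in saline enriched, 755.6 and 1119 (median 1068) in ethanol non-enriched and 776.7 and 1497 (median 921.2) in ethanol enriched libraries.

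miR-212-5p, the other arm, had the largest ratio of highest to lowest library over all 48 (5.33, beside 3.96 for miR-132-3p). In the amygdala its lowest, median and highest values were 720.9, 1077 and 1422 RPM in saline non-enriched, 798.8, 1117 and 1338 in saline enriched, 354.4, 1011 and 1362 in ethanol non-enriched and 594.1, 974.9 and 1431 in ethanol enriched libraries. The ventral striatum values were 1203, 1329 and 1550 RPM in saline non-enriched, 560.6, 1285 and 1889 in saline enriched, 635.4, 1246 and 1825 in ethanol non-enriched and 697, 1158 and 1645 in ethanol enriched libraries. miR-132-5p covered 90.02 to 267.7 RPM over the amygdala libraries and 103.8 to 298.9 RPM over those of the ventral striatum.

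To place this spread, the SD of log2(RPM + 1) within the 16 cells was computed for the 299 mature names with a mean of at least 10 RPM in both regions. It was 0.50 for miR-132-3p, 0.52 for miR-212-5p, 0.47 for miR-132-5p and 0.35 for miR-212-3p, beside a median of 0.33 over the 299 names. Among the 108 names with a mean of at least 500 RPM, a cutoff chosen after the values were seen, the median was 0.25, and 99 of the 108 varied less than miR-132-3p. The abundant products of this locus were therefore among the more variable of the abundant microRNAs between pools of the same kind.

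The first comparison was between the brain regions, using limma on log2(RPM + 1) with the 16 cells as groups and Benjamini-Hochberg adjustment over 968 names. miR-132-3p averaged 1955 ± 573 RPM (SD, n = 24) in amygdala libraries and 2426 ± 732 in those of the ventral striatum, a log2 difference (amygdala over ventral striatum) of -0.30 ± 0.14 (SE). miR-212-5p averaged 1011 ± 286 and 1245 ± 372 RPM with a difference of -0.30 ± 0.15, and miR-212-3p averaged 887 ± 195 and 1006 ± 207 RPM with a difference of -0.19 ± 0.10. miR-132-5p was at 187 ± 52.4 and 186 ± 55.5 RPM, with a log2 difference of 0.00 ± 0.13. None of the 6 names passed an adjusted p of 0.05 in this limma fit, with adjusted p-values of 0.107 for miR-132-3p, 0.129 for miR-212-5p, 0.148 for miR-212-3p and 0.999 for miR-132-5p. By contrast, 28.5% of all 968 names passed. At an unadjusted p under 0.05, miR-132-3p and mir-212 passed, beside 39% of all names. A permutation test of the mean RPM, two-sided and not adjusted, gave p = 0.0172 for miR-132-3p, 0.0186 for miR-212-5p, 0.0443 for miR-212-3p and 0.973 for miR-132-5p. Both regions were dissected from the same rats, so the libraries of the regions are not independent, as these tests take them to be. The labels do not tie the pools of both regions to each other. With pairs of consecutive numbers in the sample names, all 24 of which join an amygdala and a ventral striatum library of the same sex and treatment, as a random block, 0 of 6 names passed, and miR-132-3p had an adjusted p of 0.0912 in limma. Deviations of log2(RPM + 1) from the cell means correlated within such pairs at 0.33 for miR-132-3p, 0.37 for miR-212-5p, 0.11 for miR-132-5p and 0.06 for miR-212-3p over 24 pairs.

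The region comparison depended on 1 pool. Without the third female ethanol non-enriched amygdala library, 4 of the 6 names passed as lower in the amygdala. That library had the highest miR-132-3p of its region. Without it the log2 differences were -0.36 for miR-132-3p (adjusted p = 0.0379, limma), -0.24 for miR-212-3p (0.0444), -0.36 for miR-212-5p (0.0398) and -0.31 for mir-212 (0.0291). The reads of mir-212 are nearly those of its arms, so it adds little to the other names. With every library 20.4% of all names passed in this direction, but that share comes from another fit than the count of 4. The amygdala libraries were also shallower, with 363135 to 1287664 mature reads against 739481 to 1370425. With log10 reads as a covariate, miR-132-3p alone passed, at -0.46 (adjusted p = 0.0359, limma). The shares of all names that passed without that library or with the covariate are not given here. The median log2 difference over all names was -0.08. Median-ratio rescaling, which takes out a shift common to most names, was among the 11 alternatives run for each mature product. In all 11 miR-132-3p, miR-212-3p and miR-212-5p stayed lower in the amygdala, and miR-132-5p kept its direction in 10. How much of the differences such a shift makes up was not tested.

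Within single treatment groups the difference between regions was largest in ethanol non-enriched animals, where the log2 values were -0.56 ± 0.28 for miR-132-3p, -0.53 ± 0.29 for miR-212-5p, -0.38 ± 0.20 for miR-212-3p and -0.25 ± 0.27 for miR-132-5p. Their adjusted p-values in limma were 0.225, 0.266, 0.234 and 0.603, and 0 of 6 names passed, beside 6.82% of all names. Without that female library, miR-212-3p (-0.57, adjusted p = 0.0449, limma) and mir-212 (-0.68, adjusted p = 0.0397, limma) passed. The reads of mir-212 are nearly those of its arms, and the share of all names that passed in that fit is not given here. In the ethanol enriched, saline non-enriched and saline enriched groups the 6 names lay between -0.37 and 0.13 and 0 of 6 passed, beside 5.99%, 5.06% and 0.413% of all names. The test of whether the region difference varied with housing gave 0.17 to 0.31 for the 6 names in limma, with unadjusted p-values of 0.298 or more. The same test for the prenatal group gave -0.20 to -0.17, with unadjusted p-values of 0.354 or more. After adjustment 0 of 6 passed in either, beside 0% and 0.207% of all names.

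**Figure D2:**
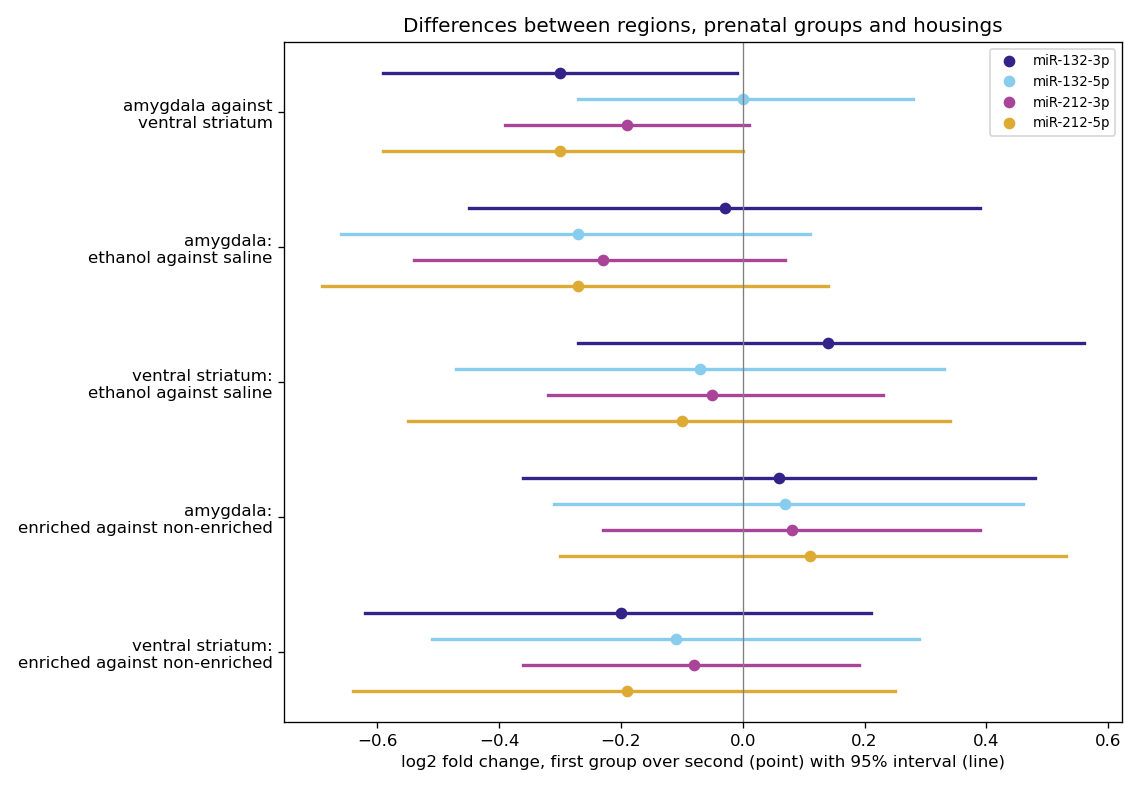
Log2 fold change of each mature product (point) with its 95% interval (line) for the difference between regions, between prenatal groups and between housings, from the limma fits. Of these 20 intervals, only that of miR-132-3p between the regions, from -0.59 to -0.01, lies wholly on 1 side of 0.

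Prenatal ethanol was compared with saline in each region. In the amygdala, with both housings pooled, miR-212-3p averaged 831 ± 242 RPM (SD, n = 12) after ethanol and 942 after saline, miR-212-5p 938 ± 327 and 1083, miR-132-5p 172 ± 58.3 and 202, and miR-132-3p 1968 ± 699 and 1941. The log2 differences were -0.23 ± 0.15 (SE), -0.27 ± 0.20, -0.27 ± 0.18 and -0.03 ± 0.20 in that order, and none passed the limma test, with adjusted p-values of 0.848 or more. At an unadjusted p under 0.05, 0 of 6 members and 4.4% of all names passed. The 95% intervals of the fold ran from 0.686 to 1.05 for miR-212-3p, 0.62 to 1.1 for miR-212-5p, 0.635 to 1.08 for miR-132-5p and 0.731 to 1.31 for miR-132-3p. These intervals still allow changes of the sizes at their ends. In the ventral striatum the log2 differences were 0.14 ± 0.20 for miR-132-3p, -0.07 ± 0.19 for miR-132-5p, -0.05 ± 0.13 for miR-212-3p and -0.10 ± 0.21 for miR-212-5p, where 0 of 6 members and 3.22% of all names passed unadjusted.

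In non-enriched animals alone, ethanol against saline in the amygdala gave -0.32 ± 0.21 for miR-212-3p, -0.34 ± 0.28 for miR-212-5p, -0.33 ± 0.26 for miR-132-5p and -0.03 ± 0.28 for miR-132-3p, with adjusted p-values of 0.842 or more in limma. Without the third female ethanol library these became -0.50, -0.61, -0.55 and -0.27. The first 3 then had unadjusted p-values of 0.0123, 0.0172 and 0.0316 in limma, but adjusted p-values of 0.334 or more. The share of all names under 0.05 unadjusted in that fit is not given here. That omission gave the lowest value of each product. Leaving out each amygdala library in turn gave -0.50 to -0.22, -0.61 to -0.12, -0.55 to -0.17 and -0.27 to 0.16 in the same order. The highest unadjusted p-values of the first 3 in these limma fits were 0.316, 0.638 and 0.509. Without the 2 amygdala libraries highest in choroid plexus markers the log2 differences became -0.24, -0.29, -0.16 and -0.01.

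Choroid plexus markers varied widely among the amygdala libraries. The choroid plexus, the tissue that secretes cerebrospinal fluid, is marked by miR-204-5p, miR-211-5p, miR-34b-5p, miR-34c-5p, miR-449a-5p and miR-448-3p, all 6 of which were detected, none at 0 throughout. Their summed level ran from 3378 to 40387 RPM in the 12 saline amygdala libraries and from 3775 to 136669 RPM in the 12 ethanol ones, and from 4061 to 11438 RPM in the ventral striatum. In the amygdala, 13 of 24 libraries lay above the highest ventral striatum library. The amygdala library lowest in miR-132-3p, miR-212-3p and miR-212-5p, the first female ethanol non-enriched pool, ranked 3 of 24 by these markers, at 48910 RPM. The second female pool of the same group was the highest at 136669 RPM and had the lowest miR-132-5p of the region. The male library with the next highest sum, 120822 RPM, had miR-132-3p at 2174 RPM, above the median of the region. Over 48 libraries the correlation (r) of log2 deviations from the cell means with the 4 mature products was -0.51 to -0.41 for miR-204-5p, the most abundant of the 6, while it was 0.03 to 0.18 for miR-211-5p, -0.19 to -0.05 for miR-449a-5p and -0.40 to -0.18 over the other three. The part of these markers in the levels of miR-132 and miR-212 was not tested beyond leaving out libraries.

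Social enrichment was compared with non-enriched housing in the same way. With prenatal groups pooled, the log2 differences in the amygdala were 0.06 ± 0.20 for miR-132-3p, 0.07 ± 0.18 for miR-132-5p, 0.08 ± 0.15 for miR-212-3p and 0.11 ± 0.20 for miR-212-5p. For the ventral striatum they were -0.20 ± 0.20, -0.11 ± 0.19, -0.08 ± 0.13 and -0.19 ± 0.21 in the same order. No member passed at either threshold, and the lowest unadjusted p-values in limma were 0.552 (amygdala, where 3.08% of all names passed unadjusted) and 0.314 (ventral striatum, 4.39%).

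Over the 8 contrasts of 1 treatment group with another (ethanol against saline within each housing and enriched against non-enriched within each prenatal group, in both regions), the 6 names gave 48 log2 differences, between -0.34 and 0.22. None passed in limma after adjustment (0% of all names passed in any of these contrasts) and none at an unadjusted p under 0.05, where 1.82% to 4.51% of all names passed. For ethanol against saline these shares were 4.51% in non-enriched and 3.85% in enriched amygdala libraries, and 2.04% and 2.25% in the ventral striatum. For enriched against non-enriched they were 2.64% in both prenatal groups of the amygdala, and 3.86% (saline) and 1.82% (ethanol) in the ventral striatum. The lowest exact permutation p of a member was 0.221, where 924 splits of 6 against 6 libraries allow 0.00216 at best, and in all 48 comparisons the groups overlapped. The interaction of ethanol and housing lay between -0.01 and 0.17 for amygdala libraries and between -0.15 and 0.17 for those of the ventral striatum, with 0 of 6 names passing at either threshold. Female against male pools gave -0.30 to -0.13 in the amygdala and -0.10 to 0.01 in the ventral striatum, likewise with 0 of 6 passing. In these tests 3.85% and 2.57% of all names passed unadjusted for the interaction, and 4.18% and 2.89% for sex.

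Because the members share a transcript, their ratios within a library were also examined, on a scale in which a common rise or fall cancels. The ratio of miR-132-3p to its own 5p arm was lower in the amygdala. Its log2 value averaged 3.38 ± 0.36 (SD, n = 24) there and 3.69 ± 0.31 in the ventral striatum, which corresponds to 10.4 and 12.9 reads of the 3p arm for each of the 5p arm. The difference of -0.31 ± 0.10 (SE) had a two-sided permutation p of 0.0028, or 0.0084 after adjustment over the 3 ratios planned. The libraries ran from 2.77 through a median of 3.29 to 4.08 in the amygdala and from 3.21 through 3.73 to 4.43 in the ventral striatum, so the regions overlapped. The other 2 planned ratios did not pass. miR-132-3p to miR-212-3p averaged 1.12 ± 0.27 and 1.23 ± 0.30 (adjusted permutation p = 0.178), and miR-212-3p to miR-212-5p averaged -0.16 ± 0.22 and -0.26 ± 0.28 (adjusted permutation p = 0.178).

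In each of the 4 treatment groups the arm ratio of miR-132 was lower in the amygdala by -0.39 to -0.25 on the log2 scale, with exact permutation p-values of 0.0909 to 0.238 for 6 libraries against 6. The sample names carry numbers, and each odd ventral striatum number is followed by an even amygdala number of the same sex and treatment. The labels do not say that such a pair came from the same pool of rats. Deviations from the cell means correlated only weakly within the pairs, at a median of 0.055 and above 0.1 in 11 of 24. In 20 of these 24 pairs the ratio was lower in the amygdala, with a permutation p of 0.00283 by random sign changes. Restricted to libraries of at least 739481 mature reads, the lowest ventral striatum depth, the difference was -0.42 (15 amygdala and 24 ventral striatum libraries). Its permutation p was 0.00021, not adjusted. The 15 amygdala libraries averaged 3.27 ± 0.29, below the 3.38 of all 24. The shallower amygdala libraries left out therefore had a higher mean ratio, with values from 3.041 to 4.076. The relation of this ratio to depth was not tested.

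**Figure D3:**
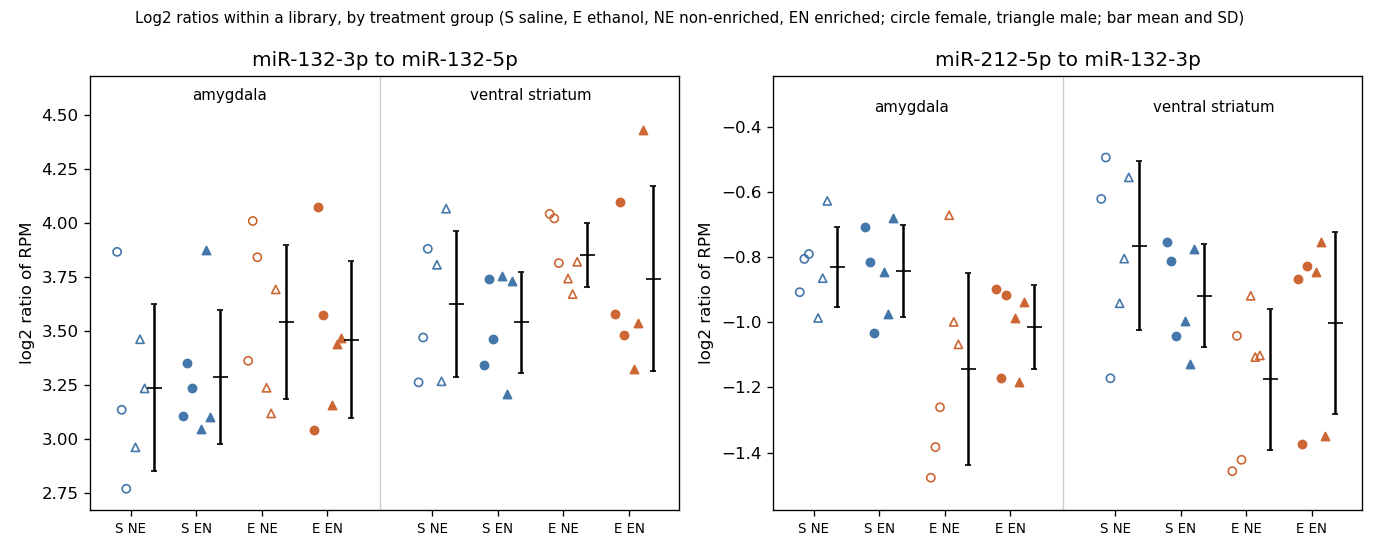
Log2 ratio of miR-132-3p to miR-132-5p (left) and of miR-212-5p to miR-132-3p (right) in each library, by treatment group, with bars for the mean and SD of 6 libraries. The left ratio sits lower in the amygdala groups (means 3.24 to 3.54) than in those of the ventral striatum (3.54 to 3.85), and the right ratio has lower means in the ethanol groups, -1.14 and -1.02 against -0.83 and -0.84 in the amygdala and -1.17 against -0.77 in non-enriched ventral striatum. The medians of the enriched ventral striatum groups run the other way (-0.86 after ethanol and -0.91 after saline), and the ventral striatum difference had an adjusted permutation p of 0.122.

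All 6 ratios of the 4 products were then compared between regions, prenatal groups and housings, giving 30 tests, of which 3 were the planned ones and 27 were chosen after the values were seen. The ratio of miR-212-5p to miR-132-3p was lower after ethanol in the amygdala, at -1.08 ± 0.23 (SD, n = 12) against -0.84 ± 0.13 after saline, a difference of -0.24 ± 0.07 with a permutation p of 0.00347 and an adjusted p of 0.0347 over the 30. The ventral striatum values were -1.09 ± 0.25 against -0.84 ± 0.22, a difference of -0.25 ± 0.10 with a permutation p of 0.0203 and an adjusted p of 0.122. On a linear scale there were 0.473 reads of miR-212-5p per read of miR-132-3p after ethanol and 0.56 after saline in the amygdala. The amygdala values ran from -1.48 through a median of -1.03 to -0.67 after ethanol and from -1.03 through -0.83 to -0.63 after saline. The ratio of miR-132-3p to miR-212-3p was higher after ethanol by 0.20 ± 0.10 (amygdala) and by 0.19 ± 0.12 (ventral striatum), with permutation p-values of 0.0609 and 0.114 and adjusted values of 0.304 and 0.38. Between regions, the arm ratio of miR-132 had an adjusted permutation p of 0.0347 over the 30. The ratios of both miR-212 arms to miR-132-5p were also lower in the amygdala. The difference was -0.30 ± 0.08 for miR-212-5p (permutation p = 0.00093, adjusted p = 0.0279). For miR-212-3p it was -0.20 ± 0.07 (permutation p = 0.00573, adjusted p = 0.043). The region ratios without miR-132-5p did not pass. None of the 12 housing tests of the ratios passed, with permutation p-values of 0.319 or more.

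The number in the sample name moved with the prenatal group. In the amygdala, saline libraries carried numbers 2 to 56 (median 22) and ethanol libraries 10 to 88 (median 61), and the ventral striatum numbers were 1 lower. What the number stands for is not given in the labels. Among the libraries numbered up to the highest saline number, 5 ethanol and 12 saline in each region, the ratio of miR-212-5p to miR-132-3p differed by -0.17 in the amygdala (exact permutation p = 0.104) and by -0.19 in ventral striatum libraries (exact permutation p = 0.133). The direction was the same, and neither passed.

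Within the ethanol libraries miR-132-3p itself tended to be higher at higher numbers. With each coefficient adjusted separately, only Spearman's rho in the ventral striatum passed, and narrowly. No adjustment was made over both coefficients together, so this pass is weak. For the ventral striatum, Pearson's r of the log2 level of miR-132-3p with the number was 0.78 (n = 12, permutation p = 0.00375) and Spearman's rho 0.80 (permutation p = 0.00301). Their adjusted values were 0.0521 and 0.0482, each over the 16 relations computed with that coefficient. In the amygdala r was 0.74 (permutation p = 0.00651) and rho 0.66 (permutation p = 0.0219), with adjusted values of 0.0521 and 0.148. Leaving out the 2 libraries farthest from the median number gave r = 0.63 and r = 0.48. Within the saline libraries r was 0.47 in the ventral striatum and 0.19 in the amygdala, with permutation p-values of 0.124 and 0.556. miR-212-5p had r of 0.67 and 0.65 in the ethanol libraries of the ventral striatum and amygdala. These fell to 0.34 and 0.20 without the 2 farthest, so that relation rested on them. In the saline libraries its r was 0.53 and 0.31 in the same order, and 0.66 and 0.13 without the 2 farthest.

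**Figure D4:**
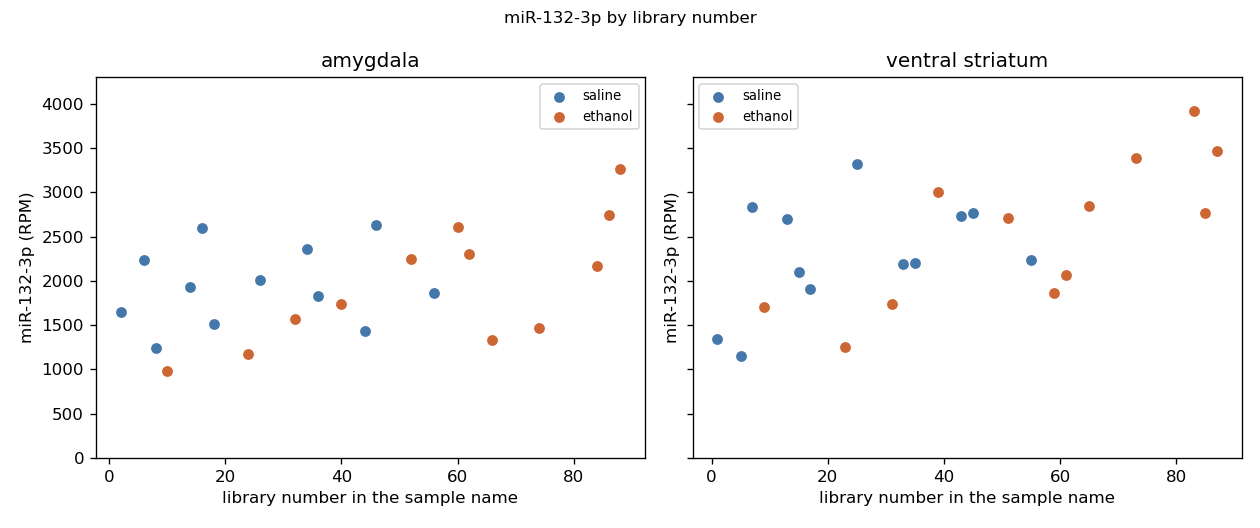
miR-132-3p in RPM (vertical axis, from 0) against the number in the sample name (horizontal axis), for saline and ethanol libraries of the amygdala and the ventral striatum. All numbers above 56 belong to ethanol libraries, and the highest library of each region, 3265 and 3920 RPM, is among them.

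The members varied together between pools of the same kind. As deviations of log2(RPM + 1) from the mean of the 16 cells, over 48 libraries, miR-132-3p correlated with miR-212-5p at r = 0.92 and rho = 0.90, and with miR-212-3p, which shares its seed, at r = 0.84 and rho = 0.83. Its own 5p arm followed it least, at r = 0.74 and rho = 0.71. The 3 remaining pairs had r of 0.78 to 0.85. For all 6 pairs the permutation p was 1e-05, the smallest that 100000 resamples can give, and without the 2 farthest libraries r was 0.67 to 0.89. Values of 1 library share its depth and its makeup of cells, which such correlations include.

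**Figure D5:**
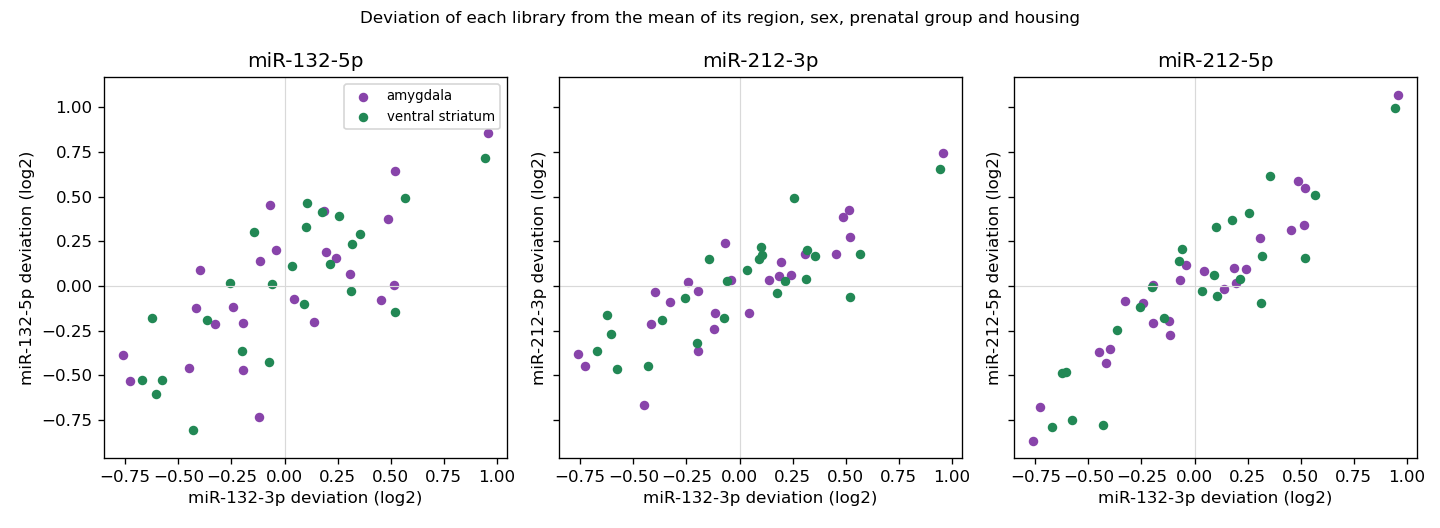
Deviation of each library from the mean of its region, sex, prenatal group and housing, in log2 units, for miR-132-3p (horizontal axes) against each other mature product (vertical axes). The points of both regions lie along a rising line, narrowest for miR-212-5p (r = 0.92) and widest for miR-132-5p (r = 0.74).

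By the same measure the names most like miR-132-3p, among 295 others with a mean of at least 10 RPM in both regions, were miR-139-5p (r = 0.83), miR-30d-5p (0.80) and miR-361-5p (0.80). Those most like miR-212-3p were miR-29a-3p (0.83), miR-674-3p (0.80) and miR-124-3p (0.75), a microRNA abundant in neurons. The median r over the 295 names was 0.06 and 0.07. Of the other cell type lists, the summed markers of oligodendrocytes, the myelin-forming cells, had r of -0.70 to -0.56 with the 4 products, and the summed neuron markers r of 0.43 to 0.75. The summed choroid plexus markers had r of -0.49 to -0.40, those of red blood cells -0.36 to -0.18, those of endothelium -0.49 to -0.04 and those of microglia and leukocytes 0.06 to 0.20. Single markers of a list differed. For endothelium, miR-126a-5p had r of -0.51 to -0.05 and the less abundant miR-126a-3p -0.15 to 0.22. For neurons, miR-9a-5p, by far the most abundant, had 0.26 to 0.64, and miR-124-3p, miR-128-3p and miR-138-5p 0.55 to 0.80. For microglia and leukocytes, miR-142-3p and miR-142-5p had 0.06 to 0.21, and miR-155-5p and miR-223-3p -0.28 to -0.06. All markers of these lists were detected in at least 8 libraries. These values describe 48 libraries in which every name shares 1 total, and they carry no test.

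For comparison, 20 other microRNAs that neuronal activity or synaptic plasticity is known to involve were compared as a list. In the region comparison 8 of the 20 passed an adjusted p of 0.05 in limma, 3 higher and 5 lower in the amygdala, beside 28.5% of all names and 0 of the 6 members. The median log2 difference of the list was -0.04, beside -0.08 for all names. The 6 with the lowest p were miR-34a-5p (-0.78), miR-218a-5p (0.50), miR-384-5p (0.16), miR-138-5p (-0.25), miR-128-3p (0.41) and miR-219a-5p (-0.49). Of these, miR-219a-5p is also on the oligodendrocyte list used above, and miR-138-5p and miR-128-3p are also on the neuron list. miR-138-5p, which acts on dendritic spines, averaged 897 ± 143 RPM in amygdala libraries and 1076 ± 206 in those of the ventral striatum (adjusted p = 0.0108, limma), close to miR-212-3p in both level and difference but with a narrower spread. In none of the 8 treatment contrasts did any of the 20 pass after adjustment in limma, and at most 1 of them passed at an unadjusted p under 0.05.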

How the data were processed

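The deposited values were RPM signal: the authors removed low-quality bases, mapped reads with Bowtie to the Rn5 rat build, assigned them to mature and precursor entries of miRBase in Partek software and scaled them to the reads of each library, and the signal of mature names and of precursor names each sums to 1000000. Some values are not whole reads (93.6% to 99.5% of mature values were, within 0.02 reads), so no count test was run. The table has 1129 lines. Lines sharing a name were summed, which left 1063 names, 612 of them mature. Depth estimated from the smallest steps was 363135 to 1370425 mature reads per library.

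Names above 0 in at least 6 libraries were tested with limma 3.58.1 in R 4.3.3 on log2(RPM + 1), with region, sex, prenatal group and housing as cells, a variance trend and Benjamini-Hochberg adjustment over all names. Single values and ratios were tested by two-sided permutation (exact for groups under 10, otherwise 100000 resamples). The fit was tested on simulated data. The labels number the libraries of a cell as replicates, and the authors describe them as pools of RNA. The members and lists were chosen with earlier results of these data known. The named microRNAs were all members, the 6 listed activity-linked names with the lowest p in the region comparison, the names sharing a member's seed and the 3 names most correlated with each 3p arm. Alternatives were other pseudocounts, filters and scalings, mature names only, unlogged values, a replicate block and each library left out. Fits of both regions together also had log10 reads as a covariate.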

Additional observations from a re-analysis of the deposited data

Results flagged for a closer look

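A sample far from the others of its group of 6 was found by Dixon's test in 4 of 80 groups of values, about the 1 in 20 that chance gives. In the ventral striatum, the third male saline non-enriched library had miR-132-5p at 130.7 RPM, where the other 5 lay between 191.4 and 217.8. In the same region, the first female ethanol enriched library had miR-212-3p at 1497 RPM against 776.7 to 1035. In the amygdala, the second male saline enriched library had a log2 ratio of miR-132-3p to miR-132-5p of 3.88 against 3.04 to 3.35. The first female ethanol non-enriched library, the lowest of the region in both arms of miR-212, had a log2 ratio of miR-212-3p to miR-212-5p of 0.42 against -0.40 to -0.15. No interaction of ethanol and housing, or of region with either, passed for any member.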

How the results depend on the processing

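Counts of members called stayed at 0 of 6 in all 23 limma comparisons under every alternative fitted to them, except as follows. In the region comparison the reads covariate gave 1 and leaving out single libraries gave 0 to 4. In its ethanol non-enriched subset leaving out single libraries gave 0 to 2. The reads covariate was fitted only to libraries of both regions together, so the treatment comparisons within a region were not adjusted for depth. With log10 reads the 4 mature products had r of -0.33 to -0.05 in the amygdala and -0.53 to -0.44 in the ventral striatum. The share of all names called under each alternative is not given here. With the reads covariate, miR-132-5p between regions was -0.06. Leaving out single libraries gave -0.05 to 0.05 for miR-132-5p between regions, -0.36 to -0.24 for miR-132-3p, -0.24 to -0.15 for miR-212-3p, -0.36 to -0.23 for miR-212-5p and -0.31 to -0.20 for mir-212, and -0.57 to -0.29 for miR-212-3p in the ethanol non-enriched subset. The direction of miR-132-3p after ethanol in the amygdala turned: with median-ratio rescaling it was 0.04 with housings pooled and 0.08 in non-enriched animals, unlogged 26.8 and 40.6 RPM, and without single libraries -0.15 to 0.06 and -0.27 to 0.16. With housings pooled in the ventral striatum, the ethanol differences without single libraries were -0.14 to 0.03 for miR-132-5p, -0.11 to 0.03 for miR-212-3p and -0.20 to 0.02 for miR-212-5p. Amygdala housing differences were -0.04 to 0.18 for miR-132-3p and -0.02 to 0.18 for miR-132-5p, which was -0.01 without the 2 libraries highest in choroid plexus markers, an alternative added after the values were seen. By unadjusted permutation p, the ratio of miR-212-5p to miR-132-3p after ethanol fell short of the threshold in the shared library numbers, at -0.17 and -0.19, with 5 ethanol libraries in each region, and passed with other pseudocounts and without single libraries; adjusted over the 30 tests, its ventral striatum value fell short with all libraries. The cause of these shifts was not tested.

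The replicate block changed no call (miR-132-3p between regions -0.30, adjusted p = 0.0866, limma). Samples of a sex and region with the same replicate number did not deviate together. The median correlation was 0.001 for the amygdala and 0.002 for the ventral striatum over 36 pairs each, so replicate numbers were not read as pairs. Groups of 6 pooled libraries with these spreads leave fold changes between 0.526 and 1.75 within the 95% intervals of the 8 treatment contrasts.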
